A study of Mus musculus with 4 samples.

Results

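The genes described here encode the protein core of the spliceosome and the SR and hnRNP proteins that bind pre-mRNA around it. They were taken from the gene names printed on the arrays: every name that begins with Snrp, Sf3a, Sf3b, U2af, Prpf, Srsf, Sfrs, Hnrp or Hnrnp, the SF3, PRPF, Srsf and Sfrs names only where a number follows. This gave 77 of 28137 gene names, with 159 of 41174 probes, and for each gene the probe of highest mean signal was read. The naming rule itself uses no measured value. By role the genes were 12 snRNP proteins, 11 proteins of SF3a, SF3b and U2AF, 13 PRPF proteins, 20 SR and SR-related proteins and 21 hnRNP proteins. The array names are old, so current RefSeq symbols are used below, for example Srsf1 for Sfrs1, Srsf10 for Sfrs13a, Srek1 for Sfrs12, Sugp2 for Sfrs14, Scaf4 for Sfrs15, Clasrp for Sfrs16, Pnisr for Sfrs18, Scaf11 for Sfrs2ip and Sfswap for Sfrs8. Of the 77 genes, 75 had a probe tested for a genotype difference; Snrpn and Srsf12 were not well above background on any of the 4 arrays.

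Both groups were bone marrow cells of male C57BL/6 mice, grown with GM-CSF (granulocyte-macrophage colony-stimulating factor) at 40 ng/ml for 4 days, after which growing immature granulocytes were sorted. One group was wild type and the other lacked miR-223, a microRNA abundant in myeloid cells. Cy3-labelled RNA of 2 wild-type and 2 knockout samples was read on 4 Agilent arrays of 1 slide. The labels give neither the animals' age, the construction of the knockout, the sorting markers, nor whether replicates came from separate animals, so that p-values measure only the spread between these samples, which may be technical.

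Between 57.6% and 63.5% of an array's probes stood well above background, with 0 saturated spots. Pearson correlations across the 16578 tested genes, which are not independent replicates, were 0.985 to 0.994 between arrays. No value for miR-223 itself was analysed here, so the knockout was not checked on these arrays. Markers of the labelled cell type and of others were read. Of 14 immature granulocyte markers, Cebpe and Ly6g had no probe. The other 12 were all measured, and 10 were higher in the knockout with a median log2 difference of 0.15. Probes bind with different strength, so the sums below are not to be read from list to list, and cell identity was not tested. Their summed linear level, in units of the array's 75th percentile, was 3790 to 4008 in wild type and 4142 to 4580 in knockout. All 16 macrophage and monocyte markers were measured, with a sum of 40.8 to 51.3 against 38.0 to 40.6, and 14 were lower in the knockout with a median of -1.09. Of 10 mast cell and basophil markers 9 were measured, and 8 were lower in the knockout with a median of -1.35. The sum of all 10 was 38.2 to 44.6 against 19.8 to 28.3, and Tpsb2 was not above background on any array. Of 9 dendritic cell markers 7 were lower in the knockout, with a median of -0.44 and sums of 98.9 to 111 and 74.2 to 110, and of 4 megakaryocyte markers 3 were lower, with a median of -0.81 and sums of 3.86 to 10.2 and 2.34 to 3.06. The sums of the 6 lymphocyte markers were 20.1 to 20.6 and 18.3 to 23.7. These marker differences were present in the same RNA as every value below, and their part in those values was not tested. In RNA of a whole sample, fewer cells of a type and less RNA per cell cannot be told apart.

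Pre-mRNA splicing is carried out by small nuclear RNAs dressed with proteins. U1 marks the 5′ splice site, U2AF and the SF3a and SF3b complexes place U2 on the branch site, and the U4/U6.U5 tri-snRNP, with many PRPF proteins, then joins and is rearranged into the catalytic enzyme. SR proteins mostly favour the use of nearby splice sites and hnRNP proteins often oppose it, so the balance of these families shapes alternative splicing, which in maturing granulocytes includes retention of introns. A microRNA acts by pairing its seed, the bases near its 5′ end, with messenger RNA.

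The mature sequence of the deleted microRNA is shown because it fixes the letters that could be looked for in the probes. It is that of RefSeq, GRCm38.p6, chrX:96242884-96242905 on the plus strand, with seed bases 2 to 8 in capitals.
mmu-miR-223-3p: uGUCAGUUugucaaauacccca
The reverse complement of this seed reads AACTGAC, and GTCAGTT on the other strand. In the 60-base probes, AACTGAC was found in 2 of 159 probes of the splicing genes, or 1.26%, and in 153 of all 41174 probes, or 0.372%. Letters of the other strand, GTCAGTT, were found in 1 of the 159 probes (0.629%) and in 0.367% of all probes. The stretches around both AACTGAC matches, read along the probe with the match in capitals, were as follows.
Sugp2 probe, bases 40 to 60: ttcccagcagaAACTGACaga
Prpf39 probe, bases 19 to 47: tagggagaaaaAACTGACtgtaaatcatg
The first probe spans chr8:72782885-72783622 and the second chr12:66162760-66162819 in build mm9, the build of the array files and of all probe positions below. Their knockout minus wild-type log2 differences were -0.05 and -0.10. The Sugp2 probe was the dimmest of 3, and the others gave -0.23 and -0.24. For Prpf39 it was the brightest of 3, and the others gave 0.18 and -0.12. A probe covers 60 bases of a transcript, so the rest of each transcript was not searched, and a match is a string of letters and not a site shown to be used.

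No splicing gene passed the test for a difference between the genotypes, and the differences measured were small. Levels are log2 processed signal minus the 75th percentile of the array, so that 0 is the level of that percentile, and differences are knockout minus wild type with limma's standard error (SE) and n = 2 arrays per group. Of the 75 tested genes 0 passed limma's Benjamini-Hochberg adjusted p of 0.05, beside 0 of 16578 genes tested (0%). Without adjustment, 0 of the 75 had p below 0.05, beside 2253 of all genes (13.6%; 8.04% higher and 5.55% lower in the knockout). An absolute difference of 0.5 or more was found in 0 of the 75 and in 2556 of all genes (15.4%). The smallest p among the 75 was that of Sf3b3, 0.0703, with a limma adjusted p of 0.403. Each gene was counted by its brightest probe alone. A second Hnrnpa2b1 probe and a dimmer Srsf10 probe, both described below, had unadjusted limma p of 0.0216 and 0.0433.

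On the brightest probe of each gene, differences ran from -0.34 for Sf3b3, a 1.27-fold difference, to 0.38 for Hnrnpul2. The Hnrnpul2 probe was dim and passed the filter only through its knockout arrays. Among the 74 genes well above background on all 4 arrays, the highest difference was 0.19, for Srsf3. Of the 75 genes, 5 differed by 0.25 or more. The median absolute difference was 0.088, against 0.184 over all genes tested. Every one of the 75 intervals (95%, from limma) lay within 1 on either side of 0, and 51 lay within 0.5, with a median distance of 0.37 from estimate to bound. The lowest bound was -0.84, for Srsf5, and the highest 0.85, for Hnrnpul2, followed by 0.62 for Hnrnph2. The spread between replicates was also small: the median gap between the wild-type arrays was 0.123 and between the knockout arrays 0.090, against 0.207 and 0.148 over all genes.

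These genes sat among the brighter probes of the arrays, where differences of all genes were smaller. Of the 75, 55 fell among the 4145 brightest of the tested genes. Among those 4145, 7.89% of genes had an unadjusted p below 0.05 and 5.04% differed by 0.5 or more. Their median difference was 0.04, and in 48.5% of them the genotypes' arrays did not overlap, close to the 48.1% of all genes.

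**Figure D1:**
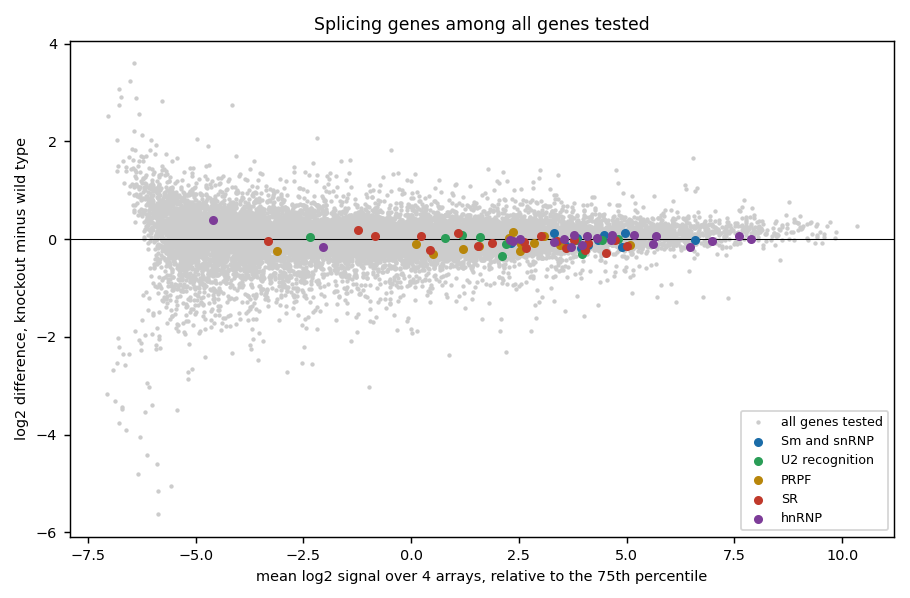
Each point is 1 gene, with its mean log2 signal over the 4 arrays on the horizontal axis and its knockout minus wild-type log2 difference on the vertical axis; grey points are all 16578 tested genes and coloured points the 75 splicing genes by class. The coloured points lie in a band from -0.34 to 0.38, mostly to the right of the plot.

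Below 0 lay 50 of the 75 differences and above 0 lay 25, with a median of -0.04, while over all genes 7496 were below and 9082 above, with a median of 0.03. The split depended on the scaling. It was 33 higher and 42 lower with the median of each array subtracted, 35 and 40 in the deposited log2 values, 34 and 41 after normexp background correction, 20 and 55 after quantile normalization, and 6 and 69 when arrays were aligned on their spike-in controls. In the same order, the median over all genes was 0.049, 0.053, 0.0011, 0.018 and -0.065, so it moved with the scaling too. That of the splicing genes was below it in each setting, at -0.020, -0.016, -0.019, -0.082 and -0.13. In 28 of 75 genes (37.3%) the knockout arrays lay both above or both below the wild-type arrays, 7 above and 21 below. Over all genes this share was 48.1%, with 28% above and 20.1% below.

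The splicing genes lay below all genes on both knockout arrays, and further on knockout array 2. Against each gene's wild-type mean, the median of the 75 genes was 0.00 on knockout array 1, where that of all genes was 0.05, and -0.09 on knockout array 2, where that of all genes was 0.02. Without knockout array 2 there were 38 higher and 37 lower, with a median of 0.0049 beside 0.058 over all genes. Without knockout array 1 there were 16 higher and 59 lower. Knockout array 2 was the lowest of the 4 for 31 of the 75 genes (41.3%, beside 26.6% of all genes) and the highest for 1, Prpf6 (1.33%, beside 23.7%). Wild-type array 1 was the highest for 29 genes (38.7%, beside 24.8%), knockout array 1 for 25 (33.3%, beside 26.4%) and wild-type array 2 for 20 (26.7%, beside 25.1%). Knockout array 2 also stood lower in mast cell and basophil markers, with a median of -2.16 against the wild-type mean and -0.51 on knockout array 1. It was lower as well in macrophage and monocyte markers (-1.41 and -0.63), dendritic cell markers (-0.63 and -0.25) and lymphocyte markers (-0.15 and 0.22). In granulocyte markers (0.28 and 0.19) and megakaryocyte markers (-0.45 and -0.96) it was the higher. The part of these marker differences in the values above was not tested.

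**Figure D2:**
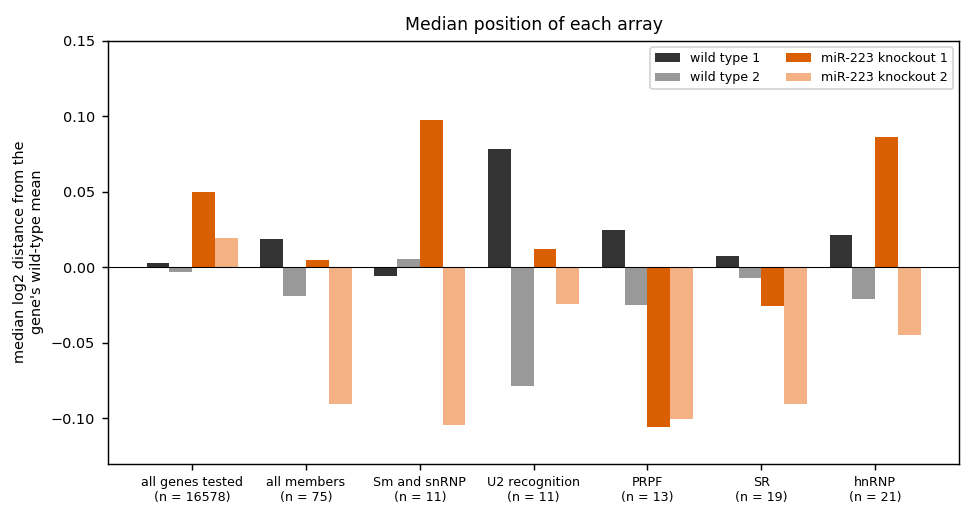
Bars give, for each array, the median over genes of the log2 distance from the gene's own wild-type mean, for all tested genes, the 75 splicing genes and their 5 classes. The PRPF bars of both knockout arrays stand near -0.10, whereas in the Sm and snRNP and the hnRNP class knockout array 1 lies above 0 and knockout array 2 below it.

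The 11 tested snRNP proteins are the Sm proteins, which form a ring around most spliceosomal RNAs, and proteins particular to U1 and U2. Differences ran from -0.18 to 0.13 with a median of -0.03, and 4 were above 0 and 7 below. Snrpg, an Sm ring protein, had levels of 6.61 and 6.59 in wild type and 6.70 and 6.45 in knockout. The knockout arrays of Snrpg thus lay on either side of the wild-type pair, and its difference was -0.03 ± 0.14 (SE). Snrpe, another ring protein, had levels of 3.92 and 4.15 against 3.79 and 3.93, which overlapped, with a difference of -0.18 ± 0.15. For Snrpb, which is in the ring as well, levels were 3.57 and 3.68 against 3.44 and 3.56, a difference of -0.12 ± 0.13. Its knockout values were the lower pair, by a margin under the gap within either pair.

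Snrpd3 was the ring protein with the largest difference above 0. Its levels were 4.95 and 4.83 in wild type and 5.03 and 5.0 in knockout, a difference of 0.13 ± 0.12 with an interval of -0.20 to 0.46. Snrpc, the U1 protein that helps U1 hold the 5′ splice site, had levels of 4.90 and 5.03 against 4.85 and 4.77, a difference of -0.15 ± 0.13 with an interval of -0.50 to 0.19. The limma adjusted p was 0.682 for Snrpd3 and 0.632 for Snrpc, the smallest in this class. In 3 of the 11 genes, Snrpd3 above and Snrpc and Snrpb below, the pairs did not overlap (27.3%, beside 48.1% of all genes). Snrpn, which encodes a close relative of the Snrpb product, was not well above background, so no difference is given for it. Without knockout array 2 the class median was 0.10, with 6 above 0 and 5 below, and without knockout array 1 it was -0.10, with 1 and 10.

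**Figure D3:**
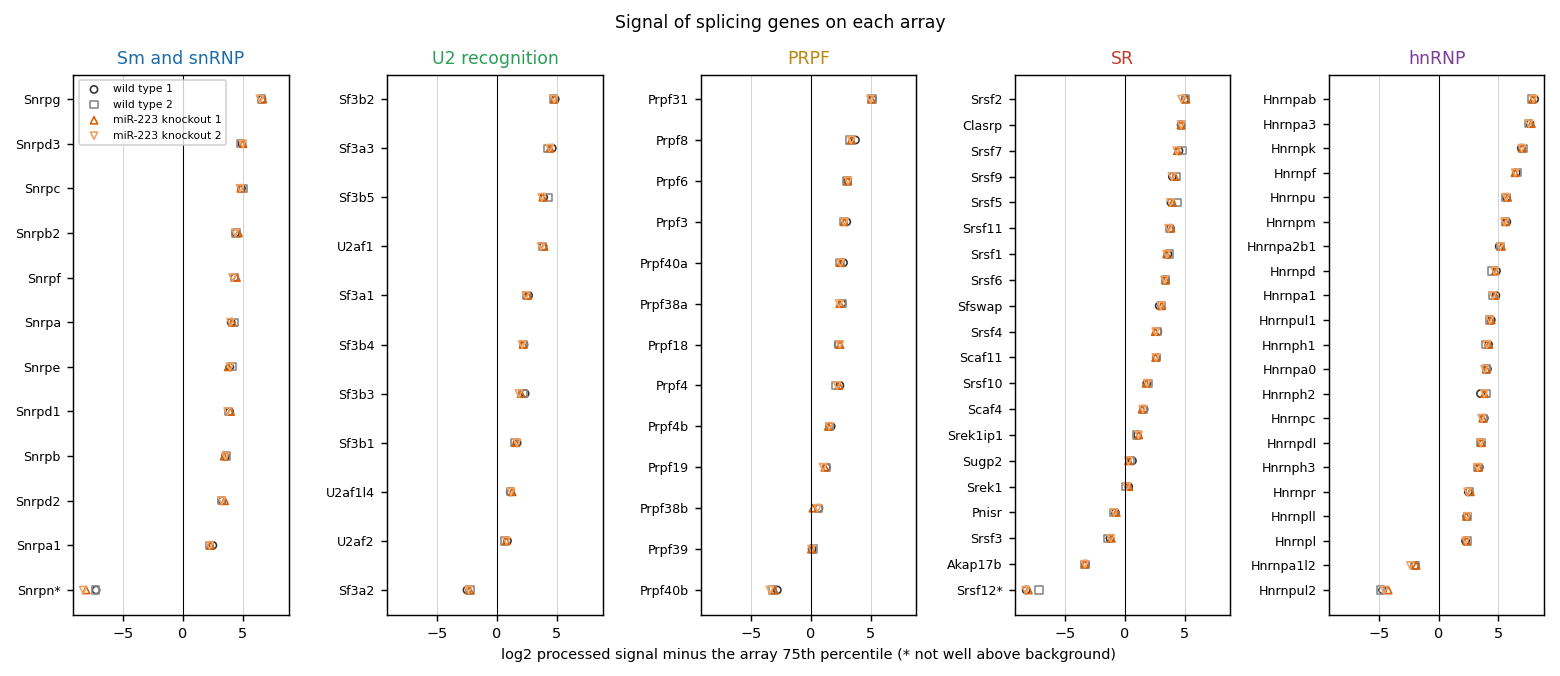
Each row is 1 of the 77 genes and each symbol 1 array, placed by log2 processed signal minus the array's 75th percentile; rows are ordered by signal within a class, and an asterisk marks the 2 genes not well above background. The 4 symbols of a gene nearly coincide in most rows; probes bind with different strength, so rows are not to be read as amounts of 1 gene against another.

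The SF3a, SF3b and U2AF proteins recognise the branch site and the 3′ end of the intron, and their 11 differences ran from -0.34 to 0.09 with a median of -0.01, 4 above 0 and 7 below. Sf3b3, a large scaffold subunit of SF3b, was measured by a probe at chr8:113370141-113370200. Its levels were 2.36 and 2.19 in wild type and 2.03 and 1.85 in knockout. Both knockout values were thus lower, and the difference was -0.34 ± 0.14 with an interval of -0.73 to 0.04. Its other probes gave -0.26 and -0.17, and on the probe with -0.17, at chr8:113334706-113334765, the levels of 2.31 and 1.90 in wild type and 1.90 and 1.98 in knockout overlapped. So the brightest probe had the largest difference of the 3, all of them below 0. The brightest probe and that with -0.26 are annotated to the same cDNA clone, and only the probe with -0.17 to a RefSeq transcript.

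Sf3b5, a small subunit of the same complex, had levels of 3.92 and 4.28 against 3.85 and 3.77. The gap between its wild-type arrays was larger than the distance between the nearest arrays of the genotypes, and its difference was -0.29 ± 0.17 with an interval of -0.75 to 0.16. Sf3b4, which contacts RNA near the branch site, differed by -0.11 ± 0.12, from 2.27 and 2.25 to 2.20 and 2.11. For U2af1l4, a relative of the small U2AF subunit, the levels of 1.12 and 1.16 in wild type and 1.29 and 1.18 in knockout did not overlap, with a difference of 0.09 ± 0.12.

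Other members of this class stayed close to 0. Sf3b2 had levels of 4.88 and 4.71 against 4.81 and 4.78, a difference of -0.00 ± 0.13. Sf3a3, of the SF3a trimer, had 4.63 and 4.25 against 4.45 and 4.42, a difference of -0.01 ± 0.17. For both, the knockout arrays lay between the wild-type arrays. The interval for Sf3b2, -0.36 to 0.35, shows how large a difference of either sign these arrays leave possible. In this class 1 gene had its knockout pair above and 3 had it below (36.4% together, beside 48.1% of all genes). The class median moved to 0.01 with array medians subtracted or in the deposited values and to 0.03 with normexp, so its sign depended on the scaling. It also depended on single arrays: the median was 0.02 without wild-type array 1, -0.10 without wild-type array 2 and 0.01 without knockout array 2, with 7, 2 and 7 genes above 0.

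The PRPF proteins are mostly parts of the tri-snRNP and of the complexes that activate the spliceosome. Of 13 differences, 10 were below 0 and 3 above, with a median of -0.11 and a range of -0.30 to 0.15. In 6 genes (46.2%, beside 20.1% of all genes) both knockout arrays lay below the wild-type pair and in 2 genes (15.4%, beside 28%) above. The class median against the wild-type mean was -0.11 on knockout array 1 and -0.10 on knockout array 2. It was below 0 under each of the other scalings, from -0.21 with spike-in controls to -0.03 with normexp, and when any 1 array was left out, from -0.20 to -0.06. The split was less steady than the median: without wild-type array 1 it was 6 above 0 and 7 below. No PRPF gene had an unadjusted p below 0.05.

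Prpf38a, which joins the spliceosome with the tri-snRNP and is needed for its activation, had levels of 2.61 and 2.68 in wild type and 2.42 and 2.37 in knockout. The pairs were separated by more than the gap within either, and the difference was -0.25 ± 0.12 with an interval of -0.57 to 0.08 (limma adjusted p = 0.452). Its relative Prpf38b had 0.67 and 0.66 against 0.17 and 0.56. There, knockout array 1 stood well below the other 3 arrays, and the difference was -0.30 ± 0.18. A second Prpf38b probe gave -0.39 ± 0.18.

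Prpf19, the ubiquitin ligase that gives its name to the Prp19 complex, had levels of 1.30 and 1.29 against 1.17 and 1.02, a difference of -0.20 ± 0.13. Prpf31, a U4 protein that helps form the tri-snRNP, had 5.16 and 5.12 against 5.07 and 4.99, a difference of -0.11 ± 0.12. Prpf8, the large U5 protein at the catalytic centre, had 3.74 and 3.28 against 3.39 and 3.39. Here the wild-type arrays differed from each other by more than the genotypes did, and the difference was -0.12 ± 0.19 with an interval of -0.64 to 0.39.

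Prpf18, which acts in the second catalytic step, and Prpf6, which bridges U5 to U4/U6, were the PRPF genes whose knockout pair lay above. Prpf18 had 2.30 and 2.29 against 2.45 and 2.43, a difference of 0.15 ± 0.12, and its other probes gave -0.07 and -0.12. For Prpf6 the brightest probe gave 3.07 and 3.02 against 3.09 and 3.13, a difference of 0.06 ± 0.12.

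**Figure D4:**
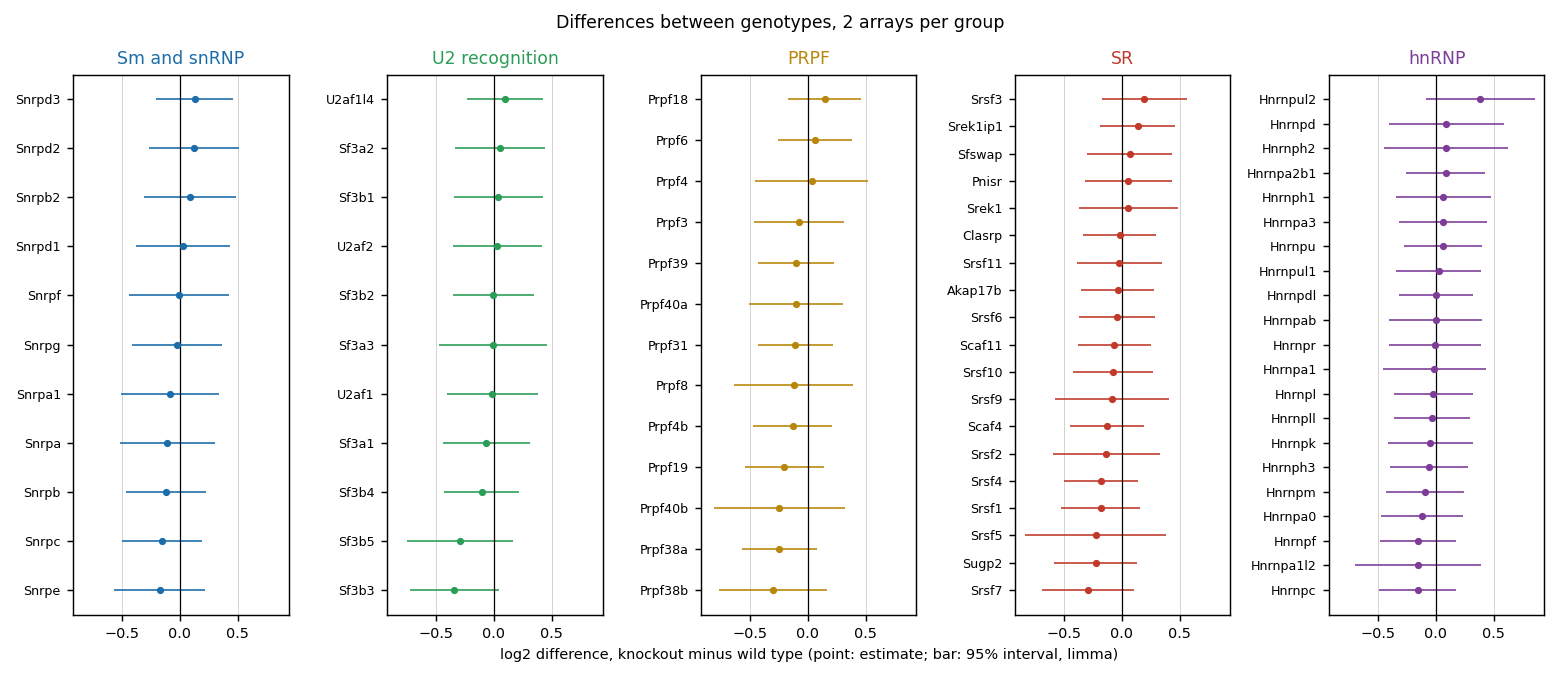
Points are knockout minus wild-type log2 differences of the 75 tested genes and bars their 95% intervals from limma with 2 arrays per group, ordered by difference within a class. Every bar crosses 0, and Sf3b3 at -0.34 and Hnrnpul2 at 0.38 are the outermost points.

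The SR group held 10 tested SR proteins, which have an RNA-binding domain and a tail rich in arginine and serine, and 9 tested SR-related proteins. Among the 10 SR proteins, 9 differences were below 0 and 1 above, with a median of -0.11. Medians against the wild-type mean were -0.05 on knockout array 1 and -0.17 on knockout array 2. The split of these SR proteins rests on the brightest probe of each. Srsf1, Srsf2 and Srsf7 each had another probe above 0, and Srsf3, the gene above 0, had another at -0.08. The other SR proteins with several measured probes had all of them below 0. Among the 9 SR-related proteins, 4 were above 0 and 5 below, with a median of -0.02. For the 19 genes the median was -0.07, between -0.16 with spike-in controls and -0.03 with normexp under other scalings. Without knockout array 2 it was -0.03, with 9 above 0 and 10 below. The range was -0.29 to 0.19, and the knockout pair lay above in 2 and below in 7 (47.4% together, near the 48.1% of all genes).

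Srsf7, a shuttling SR protein that also serves in mRNA export, had levels of 4.53 and 4.80 in wild type and 4.40 and 4.36 in knockout. Both knockout values were lower, by less than the gap between the wild-type arrays at the nearest point, and the difference was -0.29 ± 0.15 with an interval of -0.69 to 0.11 (limma adjusted p = 0.464). Srsf1, the founding SR protein also known as SF2/ASF, had 3.61 and 3.76 against 3.50 and 3.51, a difference of -0.18 ± 0.13. Srsf4 had 2.77 and 2.73 against 2.55 and 2.58, a difference of -0.18 ± 0.12. These pairs did not overlap. Srsf2, also known as SC35, had 5.06 and 5.09 against 5.13 and 4.75, where knockout array 2 alone stood low, and its difference was -0.13 ± 0.17.

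Among the SR-related proteins, Sugp2 had levels of 0.64 and 0.45 against 0.32 and 0.32, with a difference of -0.23 ± 0.13. Clasrp, a partner of a kinase of SR proteins, had 4.72 and 4.74 against 4.70 and 4.72, a difference of -0.02 ± 0.12. Sfswap, a regulator of splicing that controls its own transcript, had 2.88 and 3.08 against 3.09 and 3.01, a difference of 0.07 ± 0.14. Of these 3, Sugp2 alone had pairs that did not overlap.

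The hnRNP proteins coat nascent transcripts and many of them repress exons. Their 21 differences ran from -0.16 to 0.38 with a median of -0.01, 9 above 0 and 12 below. The knockout pair lay above in 1 gene, Hnrnpul2, and below in 3 (19% together, beside 48.1% of all genes). Without knockout array 2 the median was 0.09, with 13 above and 8 below, and without knockout array 1 it was -0.04, with 6 and 15. The median was also above 0, at 0.01 to 0.02, with the array medians subtracted, in the deposited values and with normexp.

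Hnrnpul2, a relative of hnRNP U, had the largest difference of all, but its probe was dim and was well above background on 1 of 2 wild-type arrays and on both knockout arrays. It was tested only because its knockout arrays passed the filter on dim probes. Its probe is annotated to a cDNA clone and not to a RefSeq transcript. Its levels were -4.70 and -4.87 in wild type and -4.23 and -4.58 in knockout, a difference of 0.38 ± 0.18 with an interval of -0.09 to 0.85 (limma adjusted p = 0.431). The other 74 tested genes were well above background on all 4 arrays.

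Hnrnpc, which binds uridine tracts of nascent RNA, had levels of 3.81 and 3.77 against 3.68 and 3.59, a difference of -0.16 ± 0.12. Hnrnpf, which binds G tracts, had 6.49 and 6.60 against 6.38 and 6.41, a difference of -0.15 ± 0.12. In both, the knockout pair was the lower. Among the hnRNP A and B proteins no pair was separated on the brightest probe. Hnrnpa3 had 7.63 and 7.54 against 7.76 and 7.54, a difference of 0.06 ± 0.14, and Hnrnpab had 8.03 and 7.76 against 7.87 and 7.92, a difference of -0.00 ± 0.15. Hnrnpa0 had 4.07 and 3.97 against 3.98 and 3.84, a difference of -0.12 ± 0.13.

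Hnrnpa1, a repressor that binds exonic silencers, had levels of 4.78 and 4.51 against 4.74 and 4.52. Array 1 was the brighter in both genotypes, and the difference was -0.01 ± 0.17. Hnrnpa1l2, a gene similar to Hnrnpa1, had -1.97 and -1.99 against -1.89 and -2.38, a difference of -0.16 ± 0.20 that came from knockout array 2. Its probe shared at most 50% of aligned bases with any Hnrnpa1 probe. That compares probes with probes, and the Hnrnpa1 transcript itself was not searched. Of the 159 probes, 0 were identical to a probe of a gene outside this set. Identity between probes of different genes within the set was not counted. Transcripts of Hnrnpa1 or of other near-identical copies could still bind the Hnrnpa1l2 probe or other probes, which was not tested.

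Many of the genes were measured by several probes at different positions of the transcript. In 49 genes more than 1 probe was measured, and the differences of a gene's probes had a median range of 0.15. They lay all on 1 side of 0 in 26 genes, 19 below and 7 above. When every probe was fitted on its own, 101 of 154 probes of splicing genes were below 0. By limma, 0 of the 154 were called, beside 3 of 25055 probes (0.012%), and 2 had an unadjusted p below 0.05, or 1.30%, beside 13% of all probes.

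One of those 2 probes belongs to Hnrnpa2b1, which encodes the A2 and B1 isoforms of an abundant RNA-binding protein. The first 30 bases of its probes are shown because the probes differ in sign, with their positions and differences after them.
Hnrnpa2b1 brightest probe: gacataacgtttttccttcccaattttaag
Hnrnpa2b1 second probe: gtcaaccacagagtcttcaagaaataagaa
On the brightest probe, at chr6:51412792-51412852, levels were 5.06 and 5.19 in wild type and 5.26 and 5.16 in knockout, and the difference was 0.09 ± 0.13. On the second, at chr6:51411337-51411396, they were 5.43 and 5.29 against 4.96 and 4.78. Both knockout arrays were lower there, with a difference of -0.49 ± 0.14 and an interval of -0.87 to -0.11 (unadjusted limma p of 0.0216, adjusted over all probes 0.326). Both probes were bright, so neither value comes from a dim spot, and whether the probes read different transcript ends was not tested. In wild type the second probe was the brighter, and the means of the probes over the 4 arrays differed by only 0.053. The choice of probe for this gene thus rested on the lower knockout values of the second probe. All counts over the 75 genes use the probe with the difference of 0.09. The other probe below 0.05 was one of 4 of Srsf10, an SR protein that represses splicing when dephosphorylated, at chr4:135425311-135425370. Its levels were -1.77 and -1.86 against -2.18 and -2.14, a difference of -0.35 ± 0.13 (unadjusted limma p of 0.0433, adjusted 0.376), and all 4 of its probes had differences below 0.

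Srsf7 was another gene with probes of either sign. The stretches below are the first 30 bases of its brightest probe and of the probe with the opposite sign.
Srsf7 brightest probe: tattaacatcttatggtctgaaaatgtggg
Srsf7 other probe: ggaattgtcaagcttagagggaccactgat
The brightest, at chr17:80600660-80600719, gave the -0.29 described above. The other, at chr17:80600305-80600364, had levels of -0.15 and -0.28 against 0.16 and -0.13, a difference of 0.23 ± 0.16, and the third probe gave -0.03 ± 0.18. These probes lie close together on the chromosome and differ in sign, so no direction is given for Srsf7.

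The widest range between probes was that of Prpf6. A dim probe of Prpf6 had -4.28 and -6.69 in wild type and -4.72 and -4.16 in knockout, a difference of 1.05 ± 0.83 that came from wild-type array 2 alone. In Srsf2 the 4 probes ran from -0.28 to 0.18, and in Hnrnpa1 from -0.41 to -0.01. The 4 probes of Sfswap ran from -0.31 to 0.08.

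**Figure D5:**
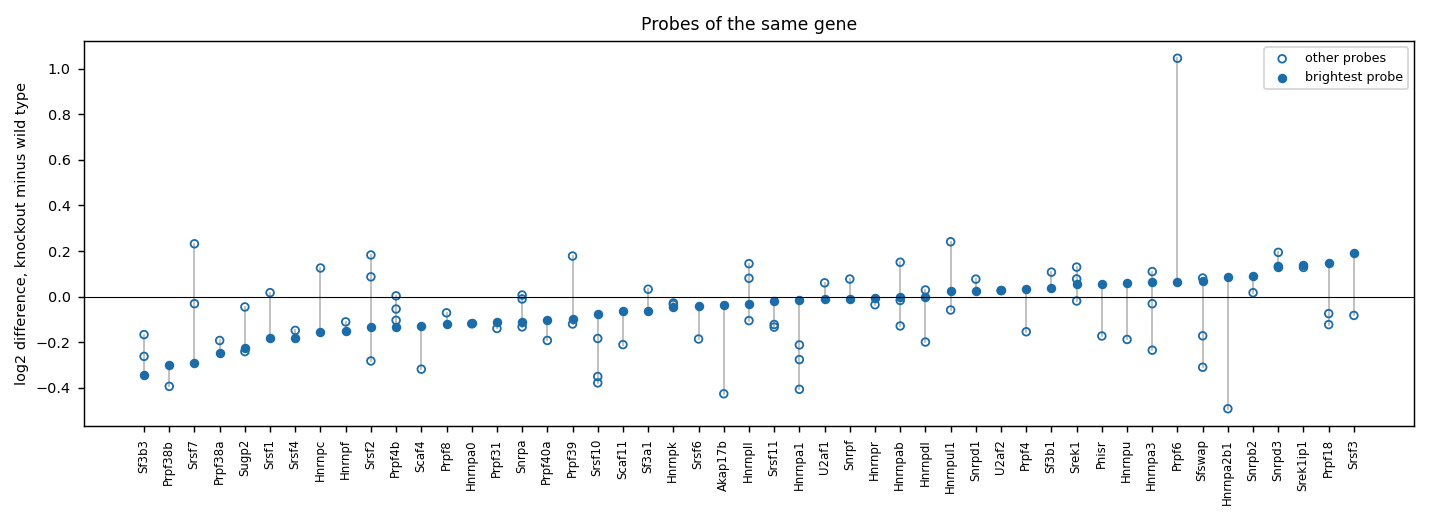
Each column is a gene with more than 1 measured probe, filled points are the brightest probe, open points the other probes, and the vertical axis is the knockout minus wild-type log2 difference. Most columns are short, with a median range of 0.15, and the exceptions are Prpf6, whose dim probe stands at 1.05, Hnrnpa2b1, with 0.09 and -0.49, and Srsf7.

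The rest of the splicing machinery was read from 7 further lists with 164 entries, of which 4 were already among the genes above, 3 were not above background and 157 were tested. None of the 157 passed the adjusted threshold, 3 had an unadjusted limma p below 0.05 (1.91%, beside 13.6% of all genes), and 64 were above 0 and 93 below with a median of -0.04. The pairs did not overlap in 63 (40.1%, beside 48.1% of all genes), 18 above (11.5%, beside 28%) and 45 below (28.7%, beside 20.1%).

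Among the 28 further snRNP and LSm proteins, 16 were above 0 and 12 below, with a median of 0.03. Snrnp27, a tri-snRNP protein, had a difference of 0.21 ± 0.13, and Smndc1, a protein of the early spliceosome, one of -0.23 ± 0.15. Of the 31 Prp19 complex proteins, helicases and second-step factors, 9 were above 0 and 22 below, with a median of -0.09, and 3 knockout pairs lay above (9.68%, beside 28% of all genes) and 13 below (41.9%, beside 20.1%). The DEAD-box helicase Ddx41 had levels of 1.20 and 1.03 against 0.72 and 0.80, a difference of -0.36 ± 0.13, and the cyclophilin-like Cwc27 had 0.63 and 0.46 against 0.22 and 0.16, a difference of -0.35 ± 0.13. Both pairs were separated, with limma adjusted p of 0.368 and 0.370.

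The 20 SR-related proteins and SR protein kinases split evenly, 10 above and 10 below, with a median of -0.01. Srpk2, a kinase of SR proteins, had 1.50 and 1.38 against 1.69 and 1.80, a difference of 0.30 ± 0.13, and Scaf8 differed by 0.27 ± 0.12. The list ran from -0.42 to 0.30; its lowest value was that of Clk1, a kinase of SR proteins named after its value was seen, with 3.33 and 4.28 against 3.20 and 3.58, pairs that overlapped, and an SE of 0.36. Of the 32 other regulators, 18 were above 0 and 14 below, with a median of 0.02. Rbfox2, which binds a GCATG motif near exons, had -2.25 and -2.29 against -1.67 and -1.80. Its pairs were widely separated, with a difference of 0.53 ± 0.13, an unadjusted p of 0.0106 and a limma adjusted p of 0.268. Ptbp3, a relative of the polypyrimidine tract-binding protein, differed by 0.26 ± 0.12.

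Of the 16 factors that assemble snRNPs, 3 were above 0 and 13 below, with a median of -0.12. Prmt5, the methyltransferase that modifies Sm proteins, had 1.46 and 1.18 against 1.06 and 0.96, a difference of -0.31 ± 0.15. Its partner Wdr77 had 0.82 and 0.88 against 0.65 and 0.51, a difference of -0.27 ± 0.13. Both knockout pairs were lower, and the limma adjusted p was 0.455 and 0.442. In the minor spliceosome, which removes a rare class of introns, 4 of 12 were above 0 and 8 below with a median of -0.08. Snrnp35 differed there by -0.19 ± 0.12 and Zrsr2 by -0.20 ± 0.15.

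Of 18 exon junction and nonsense-mediated decay factors, which mark spliced mRNA and remove faulty transcripts, 4 were above 0 and 14 below, with a median of -0.05. Magohb, a core subunit of the exon junction complex, had 1.71 and 1.72 against 1.36 and 1.23, a difference of -0.43 ± 0.13 (unadjusted limma p of 0.0237, adjusted 0.314). Smg5, which acts in decay, had 3.45 and 3.47 against 3.11 and 3.16, a difference of -0.33 ± 0.12 (unadjusted limma p of 0.0439, adjusted 0.355). In both genes the gap within each pair was smaller than the distance between pairs, and neither passed the adjusted threshold.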

How the data were processed

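Per the file headers, the authors' scanner files hold spot intensity from Agilent Feature Extraction 10.5.1.1 on design 014868, with background subtraction and no scaling between arrays. The deposited log2 values equal log2 intensity plus 1 constant per array (99.8% of probes within 0.01) and served as an alternative; how they were centred is not stated. Control and outlier-flagged spots were left out, spots of a probe averaged in log2, and each array's 75th percentile (intensity 586 and 486 in wild type, 514 and 493 in knockout) subtracted. Genes whose brightest probe passed the scanner's well-above-background flag on 2 arrays of the same genotype were tested with limma 3.58.1 in R 4.3.3 (lmFit and eBayes, two-sided), Benjamini-Hochberg adjusted over all genes. The number of arrays limits precision. RefSeq (GRCm38.p6) gave symbols for 75 of 77 genes; positions are mm9, and exons or UTRs at the probes were not analysed here. The genes and lists were chosen with earlier results of these data known. Named genes are, per class, up to 4 of smallest p, the 2 brightest and the largest difference, those with discordant probes or near-identical copies, those measured in 1 genotype, and 2 per wider list; Srsf10, Srsf3, Srsf5, Hnrnph2, Clk1 and the counts of highest and lowest arrays were added after values were seen. The script was tested on simulated data. Alternatives covered scaling, background, filter, probe choice, eBayes trend, replicate block and each array left out. One marker list is not reported here.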

Additional observations from a re-analysis of the deposited data

How the results depend on the processing

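No splicing gene was called in any setting run. Over all genes, 1 gene was called with array medians subtracted, 1 in the deposited values, 4 with spike-in scaling and 5 with normexp. Fitting every probe on its own, an alternative added after seeing the data, called 3 probes, and leaving out 1 array called 0 to 332 genes, the latter without wild-type array 1. The median of the splicing genes was -0.082 with quantile normalization and -0.13 with spike-in scaling, beside 0.018 and -0.065 over all genes. When any 1 array was left out it ranged from -0.09 (without knockout array 1) to 0.0049 (without knockout array 2). Over all genes the medians were 0.032 and 0.058 in those 2 settings. With 1 array left out, non-overlapping genes numbered 57 of 75 without wild-type array 1, beside 79.6% of all genes. They numbered 51 of 75 without wild-type array 2, beside 77.7%, and 47 of 75 without knockout array 1, beside 71.1%. Without knockout array 2 they numbered 51 of 75, beside 68.7%. Both sets of numbers are high since 3 arrays overlap less often.

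Among splicing genes an unadjusted p below 0.05 was reached by Sf3b3 with an eBayes intensity trend, by Srsf5 and Sf3b5 without wild-type array 1, and by Snrpn with no filter on dim probes; Srsf5 was named after its value was seen. Same-numbered replicates had deviations correlated at 0.175, from 2 pairs that share only a number. With the replicate number as a block, 0 splicing genes and 0 of all genes were called, and the smallest limma adjusted p of a splicing gene was 0.345.

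Some of the named genes changed sign between settings. Array medians, spike-in scaling and the deposited values differ from the main scaling by 1 constant per array. Each of these shifts all differences by nearly the same amount, which carries genes close to 0 across it. For the other settings the cause was not tested. Spike-in scaling gave -0.011 for Hnrnpa2b1, -0.033 for Hnrnpa3, -0.033 for Prpf6, -0.028 for Sfswap and -0.0022 for U2af1l4. Quantile normalization gave -0.12 for Hnrnpa3. The mean of all probes gave -0.20 for Hnrnpa2b1, -0.023 for Hnrnpa3, 0.0013 for Hnrnpab, -0.017 for Prpf18 and -0.083 for Sfswap. Subtracting array medians gave 0.0034 for Hnrnpa1, 0.016 for Hnrnpab, 0.00038 for Clasrp, 0.0073 for Sf3a3 and 0.013 for Sf3b2. The deposited values gave 0.0076 for Hnrnpa1, 0.020 for Hnrnpab, 0.0046 for Clasrp, 0.012 for Sf3a3 and 0.018 for Sf3b2. Normexp gave 0.056 for Hnrnpa1, 0.040 for Hnrnpab, 0.055 for Snrpg and 0.032 for Sf3a3. With 1 array left out, the difference ranged from -0.40 to 0.091 for Hnrnpa1l2, -0.045 to 0.17 for Hnrnpa3, -0.15 to 0.13 for Hnrnpa1, -0.13 to 0.13 for Hnrnpab, -0.35 to 0.11 for Prpf8, -0.15 to 0.098 for Snrpg, -0.32 to 0.055 for Srsf2, -0.029 to 0.17 for Sfswap, -0.20 to 0.18 for Sf3a3 and -0.090 to 0.083 for Sf3b2.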
